A study of Mus musculus with 18 samples.

Results

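Asic5, Papss1, Selenbp1, Map9, B3galnt1, Cd1d2, Bche and Setd7 are 8 genes of mouse chromosome 3, the chromosome that also carries Cd5l, the gene of the apoptosis inhibitor of macrophage (AIM). They were picked because their signal in liver differed between AIM-KO and WT mice on chow or over the diets. Every AIM-KO to WT value of these genes below is therefore a description and carries no test. The 8 genes have 14 of the 45101 probe sets on the array, and all 8 were among the 14694 genes tested, 727 of which are on chromosome 3. Liver RNA was hybridised to 18 Affymetrix Mouse Genome 430 arrays, 3 for each of 6 groups. These were AIM-KO mice (AIM-/-) and WT mice (AIM+/+), each on normal chow, after 12 weeks of a high-fat diet (HFD) or after 20 weeks of it. The strain background given for every sample is C57BL/6. Replicates are labelled biological, with no separate animals named, so p-values measure the spread between these samples. Ages are not given, and weeks on the diet and age cannot be told apart.

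AIM is a secreted protein made mainly by tissue macrophages, which in the liver are the Kupffer cells. A gene that lies on the chromosome of a targeted allele is inherited with that allele more often than a gene on another chromosome, and the more often the closer the pair lies. The labels do not name the strain in which the AIM allele was made, and the strain origin of chromosome 3 was not tested. In whole liver RNA, fewer cells of a type and less RNA per cell cannot be told apart.

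Cd5l read 4.0 to 23.5 on the 9 AIM-KO arrays, against 702.6 to 1926.8 on the 9 WT arrays. Its log2 difference averaged over the diets was -6.39 ± 0.20 (SE, adjusted p = 3.6e-13 by limma). Whether its probe set lies outside the deleted part was not tested. Values are deposited MAS5 intensities on a linear scale, and log2 differences are of the intensity plus 3.3, which understates changes of dim genes. Array medians were 15 to 21.1. Precision is limited by the number of arrays, with a median standard error of 0.22 for 3 against 3. Xist, an RNA of female cells, was high on 4 arrays, namely all 3 AIM-KO arrays and WT replicate 2 after 20 weeks. The labels give no sex, and at 20 weeks Xist moved with genotype and with diet. A term for Xist-high arrays, used below as an alternative, is set by WT replicate 2 against the other WT arrays after 20 weeks. With this term, a genotype difference at 20 weeks compares the 3 AIM-KO arrays with that 1 array, so it cannot settle the part of sex. Of the hepatocyte markers 5 of 6 were tested, and their summed intensity ranged from 29175.3 to 45611.5 over the arrays. Among 35 tested markers of 8 cell types, 0 passed the limma test between genotypes on chow (3 at an unadjusted p under 0.05) and 0 averaged over the diets (7 at an unadjusted p under 0.05).

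On chow, 4 of 14694 genes passed an adjusted p of 0.05 between AIM-KO and WT, a background of 0.0272%. Of these, 3 are among the 8 genes and were picked by this contrast, so the count tests none of them, and the other was Cd5l. Averaged over the 3 diets, 4 genes passed as well, again 0.0272%. Of these, 2 are among the 8 and were picked in the same way, and the others were Hsd3b3 and Cd5l. Hsd3b3, a hydroxysteroid dehydrogenase of mouse liver and kidney that was not among the 8, was lower in AIM-KO livers by a log2 difference of -0.85 ± 0.13 (SE, adjusted p = 0.019 by limma). That call was lost without the variance trend, with the mean of probe sets and on leaving out any of 8 arrays singly (18 tried), and the highest adjusted p was 0.154. These arrays were WT replicate 2 and AIM-KO replicate 3 on chow, WT replicates 2 and 3 and AIM-KO replicate 1 at 12 weeks, and WT replicate 1 and AIM-KO replicates 1 and 2 at 20 weeks. Hsd3b3 belongs to a family of near-identical copies, between which its probe set may not separate. By size alone, 22 genes had an averaged difference over 1 on the log2 scale, and 7 of them were on chromosome 3, which holds 4.95% of tested genes. These 7 include Cd5l, the targeted gene, and Asic5, Cd1d2 and Map9, which were picked for a genotype difference. Nothing is therefore read from this count. Asic5 ranked 2 of all genes by absolute averaged difference, Cd1d2 11, Map9 20, B3galnt1 41, Papss1 114, Setd7 1580, Selenbp1 2683 and Bche 3079. The place of Cd1d2 rests on WT signals below the 40th percentile on all 9 arrays, and its averaged difference of 1.24 was 0.67 with a larger pseudocount and 1.66 with a smaller one. Map9 and B3galnt1 were dim as well, and their averaged differences of 1.02 and 0.88 were 0.72 and 0.66 with the larger pseudocount. Over the alternatives that kept every array they ran from 0.40 to 1.15 for Map9 and from 0.66 to 0.99 for B3galnt1. Without WT replicate 2 after 20 weeks the averaged comparison called 55 genes, 8 of them on chromosome 3. It called 11, with 7 on chromosome 3, without WT replicate 3 after 20 weeks, and 8, with 6 on chromosome 3, without WT replicate 1 after 12 weeks. On chow the count was 7 without AIM-KO replicate 1, 2 or 3, and 4, 3 and 5 of the 7 were on chromosome 3, and it was 3 without WT replicate 2 or 3.

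In the RefSeq gene order of chromosome 3, counted in tested genes from Cd5l, 6 of the 8 genes lie before it. Cd1d2 is 4 genes away, Map9 31, Asic5 34, Bche 49, B3galnt1 51 and Setd7 122. Selenbp1 lies 128 genes after Cd5l and Papss1 385 genes after it. The genes with the nearest positions on the side before Cd5l (Cd1d2, Map9, Asic5, Bche and B3galnt1) all read higher in AIM-KO livers averaged over the diets, while Setd7, Selenbp1 and Papss1 read lower. These directions were used in the picking and are a description of the 8 genes. The nearest tested gene on each side of each of the 8 gave 15 neighbours. In limma, 0 of the 15 passed on chow (1 at an unadjusted p under 0.05) and 0 passed averaged over the diets (3 at an unadjusted p under 0.05). Their averaged log2 differences ran from -0.31 to 0.53, with a median size of 0.10, against 0.10 over all genes. Thus Asic5 lies between Tdo2 and Gucy1b1 and Papss1 between Sgms2 and Aimp1, none of which passed.

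**Figure D1:**
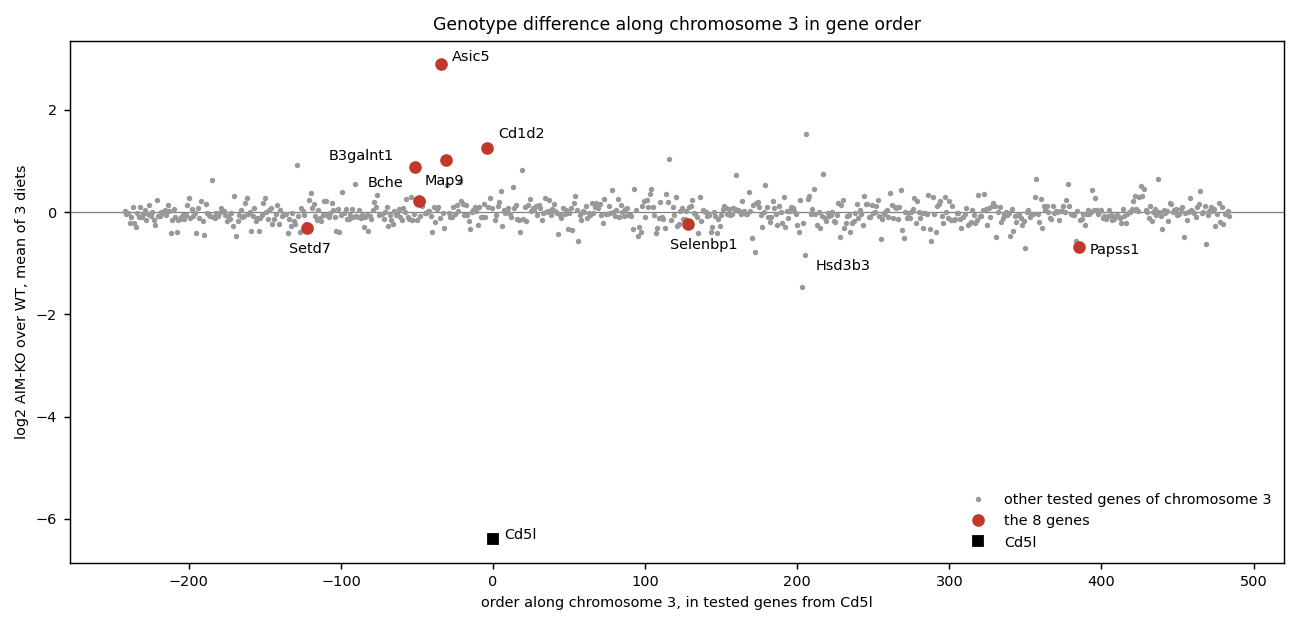
Log2 AIM-KO over WT difference, averaged over the 3 diets (vertical axis), of each tested gene of chromosome 3 in its order from Cd5l (horizontal axis, in genes). Asic5 at 2.89 and Cd5l at -6.39 stand apart from the grey points of the other genes, Hsd3b3 is marked at -0.85, and Setd7, Selenbp1 and Bche lie inside the band that most genes fill.

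Asic5 encodes a sodium channel of the acid-sensing family that bile acids activate, known in liver from the cells of the bile ducts. On chow its single probe set (1420451_at) read 501.3, 530.8 and 560.1 on the AIM-KO arrays, against 43.8, 57.0 and 59.0 on the WT arrays. After 12 weeks Asic5 read 323.8, 278.2 and 375.9 in AIM-KO livers, against 31.3, 74.9 and 61.3 in WT livers. Asic5 after 20 weeks read 258.8, 260.2 and 350.0 in AIM-KO livers, against 35.3, 39.6 and 34.8 in WT livers. All 9 AIM-KO arrays lay above all 9 WT arrays. The ratio of the mean intensities was 9.96 on chow, 5.84 after 12 weeks and 7.92 after 20 weeks. On the log2 scale the differences were 3.25 ± 0.22, 2.55 ± 0.22 and 2.87 ± 0.22 (SE, n = 3 against 3), and 2.89 ± 0.13 averaged over the diets. The summed intensity of the 5 tested cholangiocyte markers was 49.8 to 96.8 in AIM-KO and 52.8 to 162.0 in WT livers on chow, and 0 of the 5 passed between genotypes on chow (limma, 0 at an unadjusted p under 0.05). The RefSeq window from 250 bases before to 50 after the start of Asic5 (GRCm38.p6, chr3:81996672-81996971, plus strand) is shown as that of the gene with the widest gap between genotypes. Capitals mark 3 motifs searched on both strands, namely the TATA box with the letters TATAAA, the CCAAT box, which is spelled as named, and the GC box with the letters GGGCGG.
Asic5: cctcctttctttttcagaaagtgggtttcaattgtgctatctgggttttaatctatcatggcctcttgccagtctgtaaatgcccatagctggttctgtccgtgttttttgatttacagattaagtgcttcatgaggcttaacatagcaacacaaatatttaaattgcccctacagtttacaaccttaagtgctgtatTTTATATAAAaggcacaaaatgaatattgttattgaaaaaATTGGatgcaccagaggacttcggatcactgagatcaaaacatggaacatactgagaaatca
It holds 2 TATA boxes on opposite strands that overlap and 1 CCAAT box, at a GC content of 36.3%, against a median of 52.7% over all 32851 promoter windows. A TATA box occurs in 13.6% of those windows, a CCAAT box in 37.4% and a GC box in 35.7%.

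Papss1 encodes an enzyme that makes PAPS, the sulfate donor of sulfotransferases, and its paralog Papss2 is the other mouse enzyme of this kind. On chow its probe set (1415890_at) read 47.9, 60.5 and 65.7 in AIM-KO livers, against 171.0, 136.4 and 159.7 in WT livers. After 12 weeks Papss1 read 141.0, 114.2 and 118.8 in AIM-KO livers, against 170.5, 160.3 and 155.1 in WT livers. Papss1 after 20 weeks read 117.4, 96.7 and 102.5 in AIM-KO livers, against 141.3, 123.6 and 126.4 in WT livers. The AIM-KO arrays lay below the WT arrays on each of the 3 diets, with the widest gap on chow. The log2 difference was -1.38 ± 0.14 on chow, -0.37 ± 0.14 after 12 weeks and -0.30 ± 0.14 after 20 weeks. The 3 AIM-KO chow arrays were the lowest of all 18. From chow to 12 weeks the log2 difference was 1.07 ± 0.14 within AIM-KO and 0.06 ± 0.14 within WT, and at 20 weeks over chow it was 0.83 ± 0.14 within AIM-KO and -0.25 ± 0.14 within WT. These values share the chow arrays that picked the gene and were not tested. The Papss1 window (GRCm38.p6, chr3:131564518-131564817, plus strand), the first of 2 starts that RefSeq lists, is shown with the same motifs in capitals because this gene changed with diet (below).
Papss1: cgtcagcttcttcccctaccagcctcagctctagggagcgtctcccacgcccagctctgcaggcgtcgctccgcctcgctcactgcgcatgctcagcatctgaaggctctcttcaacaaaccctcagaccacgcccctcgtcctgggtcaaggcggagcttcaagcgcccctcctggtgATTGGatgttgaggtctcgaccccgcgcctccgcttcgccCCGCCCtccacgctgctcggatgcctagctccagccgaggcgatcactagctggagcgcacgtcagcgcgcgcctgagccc
It has 1 CCAAT box and 1 GC box, no TATA box, and a GC content of 66.3%.

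Selenbp1 encodes a selenium-binding protein of the liver cytosol that oxidises methanethiol. Its brightest probe set (1417580_s_at) is named Selenbp1 by the platform, but its accession is that of Selenbp2 in RefSeq, and Selenbp2, a near-identical paralog, has no other probe set of its own symbol. It read 3260.4, 2948.9 and 3198.8 in AIM-KO livers on chow, against 4273.7, 4969.6 and 5357.1 in WT livers. After 12 weeks Selenbp1 read 2411.0, 2304.4 and 2784.7 in AIM-KO livers, against 2710.9, 2899.1 and 3020.8 in WT livers. Selenbp1 after 20 weeks read 2979.9, 2919.7 and 2917.3 in AIM-KO livers, against 2609.1, 2866.2 and 2515.8 in WT livers. AIM-KO lay below WT on chow, the groups overlapped at 12 weeks, and AIM-KO lay above WT at 20 weeks. The log2 differences were -0.63 ± 0.10, -0.21 ± 0.10 and 0.14 ± 0.10. The probe set with the Selenbp1 accession (1450699_at) read 3156.8, 2719.7 and 2400.2 in AIM-KO livers on chow, against 3284.7, 3211.9 and 3494.9 in WT livers, a log2 difference of -0.28 ± 0.11. It differed by -0.04 ± 0.11 at 12 weeks and 0.01 ± 0.11 at 20 weeks, where its groups overlapped. Which of the 2 transcripts the brighter probe set follows cannot be told apart. The windows of the 2 paralogs are shown to compare their promoters (GRCm38.p6, plus strand, chr3:94932833-94933132 for Selenbp1 and chr3:94693323-94693622 for Selenbp2). Their transcripts and the probes were not compared.
Selenbp1: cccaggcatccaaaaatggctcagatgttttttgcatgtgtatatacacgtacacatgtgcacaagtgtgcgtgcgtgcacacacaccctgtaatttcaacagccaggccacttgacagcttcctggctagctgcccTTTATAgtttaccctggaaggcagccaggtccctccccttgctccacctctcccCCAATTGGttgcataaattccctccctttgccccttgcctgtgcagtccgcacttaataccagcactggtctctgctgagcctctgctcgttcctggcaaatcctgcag
Selenbp2: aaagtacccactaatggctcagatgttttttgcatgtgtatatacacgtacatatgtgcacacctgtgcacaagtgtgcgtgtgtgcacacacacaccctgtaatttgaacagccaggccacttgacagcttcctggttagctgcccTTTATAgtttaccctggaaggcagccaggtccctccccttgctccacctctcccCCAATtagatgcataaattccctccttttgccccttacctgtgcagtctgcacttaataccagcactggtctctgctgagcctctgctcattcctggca
Of 288 aligned bases 272 were identical, or 94.4%, and each window has a TATA box and a CCAAT box, with a further overlapping CCAAT box on the other strand in Selenbp1.

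B3galnt1 encodes the transferase that adds N-acetylgalactosamine to make globoside, a neutral glycolipid. Its probe set (1418736_at) read 25.0, 22.1 and 41.9 in AIM-KO livers on chow, against 10.7, 7.8 and 22.2 in WT livers. After 12 weeks B3galnt1 read 60.2, 53.0 and 51.1 in AIM-KO livers, against 18, 28.3 and 23.0 in WT livers. B3galnt1 after 20 weeks read 38.5, 44.1 and 27.1 in AIM-KO livers, against 34.2, 19.1 and 23.0 in WT livers. The groups were apart at 12 weeks, touched at a single pair of arrays on chow and overlapped at 20 weeks. The log2 differences were 1.01 ± 0.31, 1.15 ± 0.31 and 0.48 ± 0.31. With the term for Xist-high arrays, which leaves a single WT array to compare with, B3galnt1 differed by 0.81 ± 0.43 at 20 weeks.

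Cd1d2 is a near copy of Cd1d1, the gene for the CD1d molecule that presents lipids to NKT cells, and RefSeq lists it as a transcribed pseudogene. Its probe set (1421647_at) read 9.4, 17.7 and 1.2 in AIM-KO livers on chow, against 1.1, 0.8 and 6.3 in WT livers. After 12 weeks Cd1d2 read 16.6, 22.8 and 22.3 in AIM-KO livers, against 3.5, 3.3 and 9.8 in WT livers. Cd1d2 after 20 weeks read 15.2, 15.9 and 20.8 in AIM-KO livers, against 1.7, 4.4 and 11.6 in WT livers. The AIM-KO arrays were higher without overlap at 12 and 20 weeks, and overlapped with WT on chow. The gene lay above the 40th percentile of its array on 7 AIM-KO arrays and on 0 WT arrays, so it entered the tests through the AIM-KO livers alone. Its log2 differences of 0.93 ± 0.53, 1.5 ± 0.53 and 1.30 ± 0.53 compare a dim signal with values near the floor, so their size depends on the pseudocount and on single arrays. On chow the difference was 0.46 with a larger pseudocount, 1.37 with a smaller one, 0.44 without AIM-KO replicate 2 and 1.55 without AIM-KO replicate 3. Cd1d1 was bright and differed by 0.09 ± 0.05 averaged over the diets (adjusted p = 0.76 by limma). Of the 5 tested T, NK and NKT cell markers, 0 passed between genotypes averaged over the diets (limma, 0 at an unadjusted p under 0.05).

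Bche encodes butyrylcholinesterase, an esterase that hepatocytes secrete into plasma. Its brightest probe set (1436098_at) read 921.5, 767.2 and 833.0 in AIM-KO livers on chow, against 654.9, 719.6 and 641.2 in WT livers. After 12 weeks Bche read 1026.8, 1144.5 and 988.7 in AIM-KO livers, against 895.9, 927.1 and 811.7 in WT livers. Bche after 20 weeks read 1142.1, 1117.5 and 1202.3 in AIM-KO livers, against 1076.1, 1160.6 and 1095.3 in WT livers. AIM-KO lay above WT on chow and at 12 weeks, and the groups overlapped at 20 weeks. The log2 differences were 0.32 ± 0.09, 0.26 ± 0.09 and 0.06 ± 0.09. Of the other probe sets, 1437863_at differed by 0.48 ± 0.21 on chow and -0.19 ± 0.21 at 20 weeks, and 1421218_at overlapped on all 3 diets. The Bche window (GRCm38.p6, chr3:73708366-73708665, minus strand) is shown as that of the gene whose rise with diet had the smallest adjusted p (below).
Bche: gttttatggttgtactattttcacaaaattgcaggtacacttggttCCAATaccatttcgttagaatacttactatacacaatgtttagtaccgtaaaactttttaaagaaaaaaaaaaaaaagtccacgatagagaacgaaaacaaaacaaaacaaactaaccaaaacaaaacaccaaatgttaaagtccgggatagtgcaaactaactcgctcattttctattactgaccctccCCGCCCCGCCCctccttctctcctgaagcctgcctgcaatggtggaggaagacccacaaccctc
It has 1 CCAAT box, 2 overlapping GC boxes and a GC content of 39.3%.

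Map9 encodes a microtubule-associated protein of the mitotic spindle. Its brightest probe set (1440231_at) read 26.5, 27.4 and 38.9 in AIM-KO livers on chow, against 14.9, 16.1 and 3.8 in WT livers. After 12 weeks Map9 read 45.1, 46.3 and 37.6 in AIM-KO livers, against 30.2, 11 and 13.2 in WT livers. Map9 after 20 weeks read 32.4, 37.8 and 33.2 in AIM-KO livers, against 25.9, 27.2 and 16.8 in WT livers. AIM-KO lay above WT on each of the 3 diets, and the gap was narrowest at 20 weeks. The log2 differences were 1.32 ± 0.35, 1.21 ± 0.35 and 0.53 ± 0.35. With the term for Xist-high arrays, which leaves a single WT array to compare with, the last was 0.31 ± 0.51. The other probe sets overlapped on every diet and averaged 0.32 ± 0.23 (1441961_at) and -0.13 ± 0.24 (1445442_at), so the difference was seen in 1 of 3 probe sets.

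Setd7 encodes a methyltransferase of histone H3 lysine 4 and of other proteins. Its brightest probe set (1435437_at) read 67.4, 48.7 and 51.7 in AIM-KO livers on chow, against 59.1, 69.4 and 55.6 in WT livers. After 12 weeks Setd7 read 107.4, 106.0 and 74.1 in AIM-KO livers, against 85.2, 81.9 and 76.1 in WT livers. Setd7 after 20 weeks read 49.7, 52.7 and 43.6 in AIM-KO livers, against 108.2, 94.1 and 99.4 in WT livers. The groups overlapped on chow and at 12 weeks, and at 20 weeks AIM-KO lay below WT. The log2 differences were -0.13 ± 0.17, 0.22 ± 0.17 and -1.0 ± 0.17. The Xist-high WT array at 20 weeks was that with 94.1. With the term for Xist-high arrays, Setd7 differed from this array alone by -0.91 ± 0.24 at 20 weeks. Single markers of other cells were lower in AIM-KO livers at 20 weeks too. These were Lyve1 of endothelial cells at -1.13 ± 0.22 (adjusted p = 0.041 by limma) and Col3a1 of stellate cells at -1.31 ± 0.25 (adjusted p = 0.043 by limma). They were the 2 that passed of 35 tested markers of 8 cell types (8 at an unadjusted p under 0.05). This comparison called 23 genes, and 2 to 946 with an array left out. The summed stellate markers were 1977.5 to 2586.8 in AIM-KO and 3176.0 to 4051.7 in WT livers, and the endothelial ones 1026.6 to 1099.9 in AIM-KO and 1230.8 to 1459.5 in WT livers. Their part in the Setd7 difference was not tested, and neither was that of sex, since the Xist term rests on a single WT array. The dimmer probe set (1423003_at) differed by -0.18 ± 0.53 at 20 weeks.

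**Figure D2:**
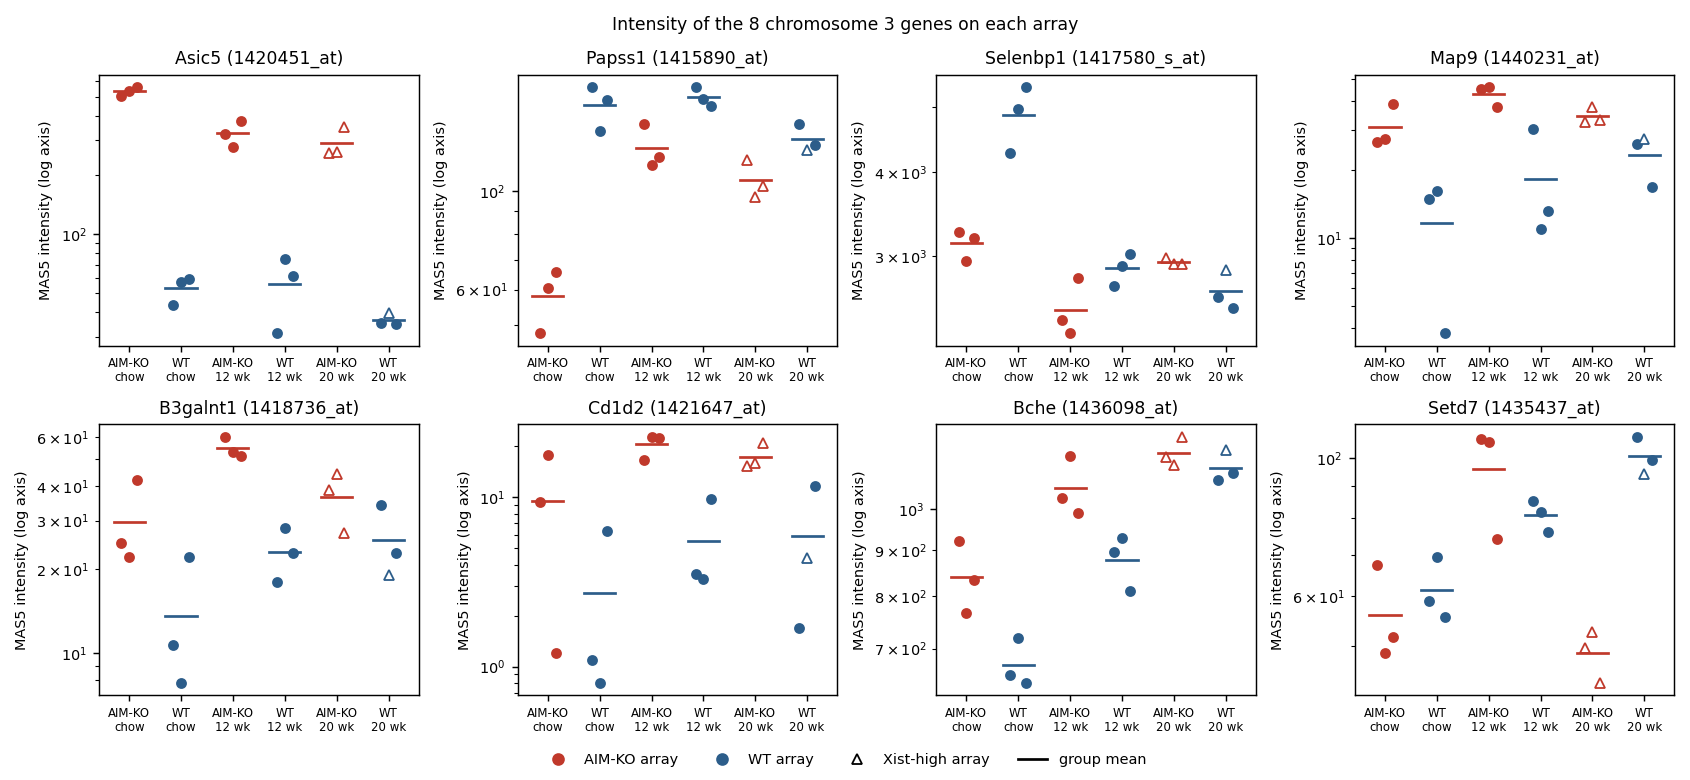
MAS5 intensity (vertical, log axis) of the brightest probe set of each of the 8 genes on every array, with AIM-KO left of WT on chow, after 12 and after 20 weeks of HFD. Bars are group means, and open triangles are the 4 Xist-high arrays. The Asic5 groups are apart on all 3 diets, the Papss1 gap is widest on chow, and the Setd7 gap appears at 20 weeks.

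Over the 8 genes, 5 had arrays that did not overlap between genotypes on chow, 6 after 12 weeks and 6 after 20 weeks. Over all tested genes the same held for 11.5%, 16.0% and 15.8%, and as the genes were picked for this contrast nothing is read from their share. Cd1d2 is in the counts at 12 and 20 weeks, though it entered the tests through the AIM-KO livers alone. Asic5, Papss1 and Map9 were apart on all 3 diets.

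**Figure D3:**
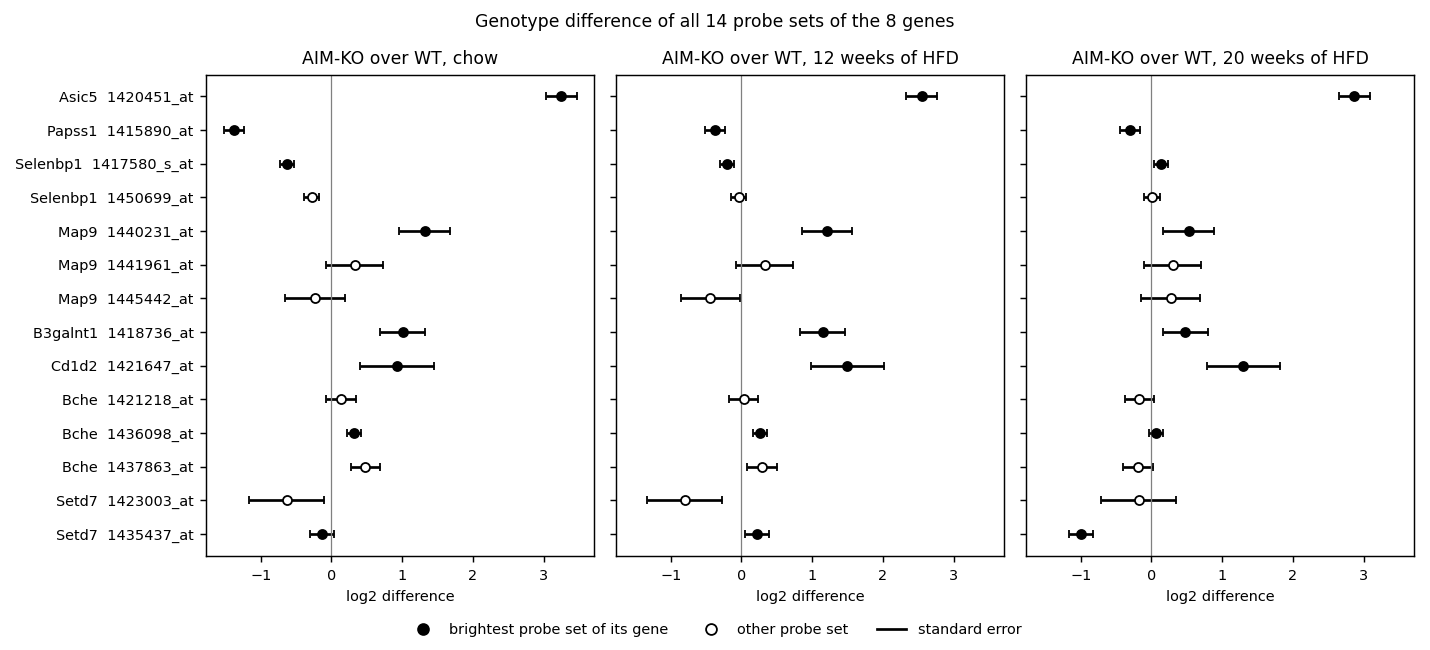
Log2 AIM-KO over WT difference with its standard error (horizontal axis) of all 14 probe sets of the 8 genes, on chow, after 12 and after 20 weeks of HFD (n = 3 against 3). Filled points are the brightest probe set of a gene. The Map9 difference is carried by 1440231_at, and the Selenbp1 probe set with the Selenbp2 accession lies further below 0 on chow than the other.

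In this balanced design the noise of the diet effect averaged over the genotypes is uncorrelated with that of the genotype contrasts. The averaged diet effect was tested with limma over all 14694 genes. It still shares arrays and the estimate of spread with the contrast that picked the genes. Their part in the calls, counts and medians was not tested. Cd1d2 is left out of the counts and medians, since 6 of the 7 arrays through which it passed the dim filter were on HFD. After 12 weeks of HFD, 4 of the other 7 genes were higher than on chow and 1 was lower at an adjusted p under 0.05, where 22.5% of all genes passed in either direction (13.6% higher and 8.87% lower). Bche rose by 0.35 ± 0.07 on the log2 scale (adjusted p = 0.00077 by limma) and Papss1 by 0.56 ± 0.10 (adjusted p = 0.00044 by limma). Setd7 rose by 0.56 ± 0.12 (adjusted p = 0.0018 by limma) and B3galnt1 by 0.79 ± 0.22 (adjusted p = 0.013 by limma). Selenbp1 fell, with a difference of -0.54 ± 0.07 (adjusted p = 1.9e-05 by limma). Asic5 at -0.36 ± 0.16 and Map9 at 0.50 ± 0.25 did not pass. Cd1d2 stood at 0.87 ± 0.38, as a description. The median over the 7 was 0.50, against 0.02 over all genes.

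After 20 weeks, 2 of the 7 were higher than on chow and 2 were lower, where 20.9% of all genes passed (12.4% higher and 8.55% lower). Bche rose by 0.59 ± 0.07 (adjusted p = 5.5e-06 by limma) and Papss1 by 0.29 ± 0.10 (adjusted p = 0.042 by limma). Selenbp1 fell, with a difference of -0.48 ± 0.07 (adjusted p = 7.4e-05 by limma), and so did Asic5, with -0.69 ± 0.16 (adjusted p = 0.0041 by limma). Setd7, B3galnt1 and Map9 did not pass, at 0.25 ± 0.12, 0.56 ± 0.22 and 0.55 ± 0.25, and Cd1d2 stood at 0.76 ± 0.38. The median over the 7 was 0.29, against 0.01 over all genes. With the term for Xist-high arrays, Asic5 stood at -0.80 ± 0.28 (adjusted p = 0.0759 by limma) and Papss1 at 0.37 ± 0.17 (adjusted p = 0.199 by limma). Neither passed, though both differences were larger in size than without the term, and their standard errors were larger too. Selenbp1 at -0.59 ± 0.11 and Bche at 0.53 ± 0.11 did pass. The Papss1 call at 20 weeks was also lost without any of 10 arrays taken singly, with adjusted p-values between 0.0179 and 0.199 over all alternatives. These were WT replicates 2 and 3 and AIM-KO replicates 1 and 2 on chow, AIM-KO replicates 2 and 3 at 12 weeks, and replicates 1 and 3 of either genotype at 20 weeks. Between 20 and 12 weeks, 0 of the 7 genes passed in limma (4 at an unadjusted p under 0.05), where 0.558% of all genes did.

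The rise of Bche was seen in each of its 3 probe sets, at 0.29 ± 0.15, 0.35 ± 0.07 and 0.39 ± 0.15 after 12 weeks and at 0.45 ± 0.15, 0.59 ± 0.07 and 0.47 ± 0.15 after 20 weeks. Only 1436098_at passed over all probe sets at 12 weeks, and it and 1437863_at did at 20 weeks. The fall of Selenbp1 rests on the probe set with the Selenbp2 accession. The other one stood at -0.10 ± 0.07 after 12 weeks (adjusted p = 0.48 over all probe sets by limma) and -0.13 ± 0.07 after 20 weeks (adjusted p = 0.35 by limma). Setd7 1423003_at, the dimmer one, stood at 0.07 ± 0.38 after 12 weeks.

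Within the genotypes the values were as follows, without tests because, unlike the averages, they are correlated with the contrast that picked the genes. Bche was higher after 20 weeks than on chow by 0.46 ± 0.09 in AIM-KO and 0.72 ± 0.09 in WT livers. Asic5 changed by -0.88 ± 0.22 in AIM-KO and -0.50 ± 0.22 in WT livers over the same interval. Selenbp1 differed from chow by -0.09 ± 0.10 in AIM-KO and -0.86 ± 0.10 in WT livers. The averaged values of Selenbp1 and of Papss1 (above) thus join unlike values of the genotypes, and this difference was not tested. Setd7 stood at -0.18 ± 0.17 in AIM-KO and 0.69 ± 0.17 in WT livers after 20 weeks, and at 0.74 ± 0.17 in AIM-KO and 0.39 ± 0.17 in WT livers after 12 weeks. B3galnt1 stood at 0.86 ± 0.31 in AIM-KO and 0.72 ± 0.31 in WT livers after 12 weeks.

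**Figure D4:**
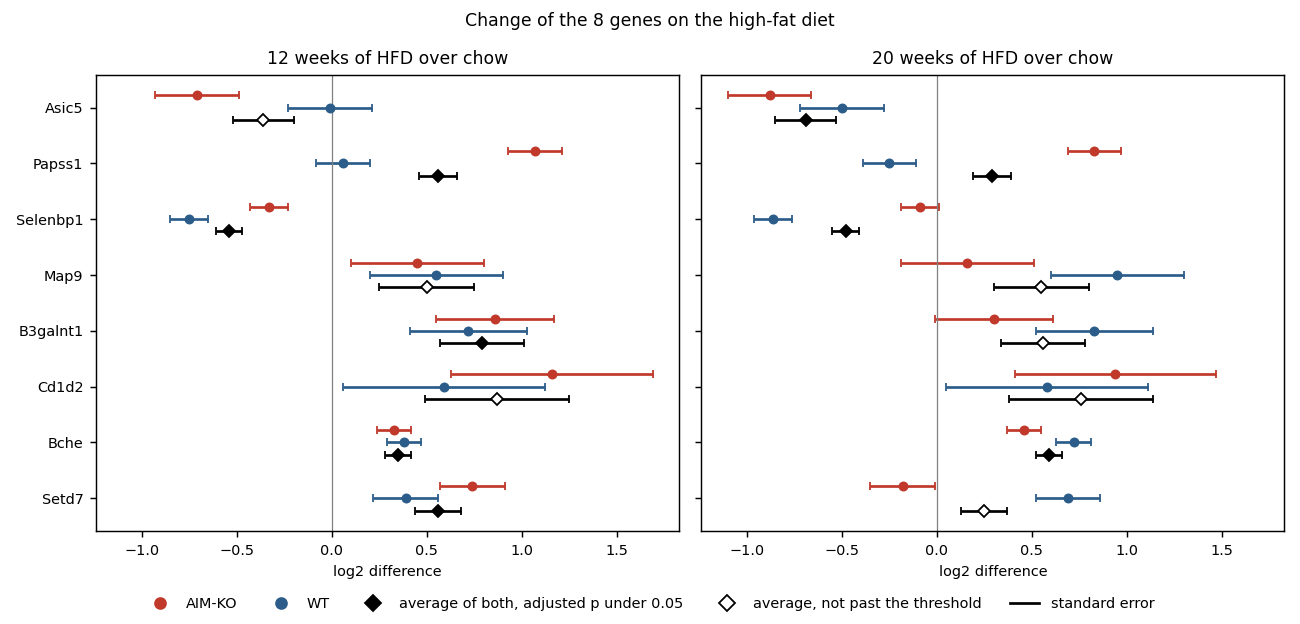
Log2 difference with its standard error between HFD and chow (horizontal axis) of the 8 genes after 12 weeks (left) and 20 weeks (right), in AIM-KO, in WT and averaged. Filled diamonds are averages with an adjusted p under 0.05, and the values of Cd1d2 are a description. Bche is right of 0 in both genotypes at both times, Papss1 lies at 1.07 in AIM-KO and 0.06 in WT at 12 weeks, and Selenbp1 at -0.09 in AIM-KO and -0.86 in WT at 20 weeks.

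Genes that work with the 8 were followed through 8 lists of 80 genes, 70 of them tested. Between genotypes 0 of the 70 passed in limma on chow (3 at an unadjusted p under 0.05) and 0 averaged over the diets (5 at an unadjusted p under 0.05). With diet, 22 of the 70 passed at 12 weeks, 10 higher and 12 lower, and 17 at 20 weeks, 8 higher and 9 lower, against 22.5% and 20.9% of all genes. Each list is small, and nothing particular to a list is read from these counts. In sulfate activation and PAPS handling, the list of Papss1, 2 of 9 passed at 12 weeks and 2 of 9 at 20 weeks, all lower, a share near that of all genes. At 12 weeks these were Tpst1, a tyrosylprotein sulfotransferase, at -0.81 ± 0.14 (adjusted p = 0.00031 by limma), and Papss2 at -0.33 ± 0.11 (adjusted p = 0.041 by limma), while Papss1 rose. At 20 weeks they were Tpst1 at -1.04 and Slc35b2, a PAPS transporter of the Golgi, at -0.42. In sulfur and sulfide oxidation, the list of Selenbp1, 6 of 8 passed at 12 weeks, 1 higher and 5 lower, and 3 of 8 at 20 weeks, 1 higher and 2 lower. At 12 weeks Cth, which makes cysteine from cystathionine, fell by 1.11 ± 0.10 and Ethe1, a mitochondrial persulfide dioxygenase, by 1.03 ± 0.13, while Mpst, a mercaptopyruvate sulfurtransferase, rose by 0.77 ± 0.14.

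In glycolipid synthesis, the list of B3galnt1, 2 of 9 passed at 12 weeks and 2 of 9 at 20 weeks, all higher, again near the share of all genes. At 12 weeks B4galt6, a lactosylceramide synthase, rose by 1.0 ± 0.19 and Hexa, a lysosomal hexosaminidase subunit, by 0.86 ± 0.07. In the spindle list of Map9, 3 of 10 rose at 12 weeks and 1 of 10 at 20 weeks, and those at 12 weeks included Prc1, a bundler of spindle microtubules, at 1.23 ± 0.24. In the CD1d list of Cd1d2, 4 of 9 passed at 12 weeks and 4 of 9 at 20 weeks, each time 3 higher and 1 lower. Those that rose at 12 weeks were the lysosomal protease gene Ctss at 0.79 ± 0.16, the saposin precursor gene Psap at 0.67 ± 0.10 and the lipid transfer gene Mttp at 0.53 ± 0.08. In the list of Setd7, 3 of 13 passed at 12 weeks, 1 higher and 2 lower, and 4 of 13 at 20 weeks, 1 higher and 3 lower. At 12 weeks the lysine demethylase gene Kdm5b fell by 0.62 ± 0.10 and the methyltransferase gene Setd1b by 0.55 ± 0.16, while Smyd2 rose by 0.24 ± 0.08. In the channel list of Asic5, 1 of 4 passed at each time, and this was Scnn1a, a subunit of the epithelial sodium channel, at -0.79 ± 0.27 at 12 weeks (adjusted p = 0.041 by limma) and -0.89 ± 0.27 at 20 weeks (adjusted p = 0.024 by limma). In the cholinesterase list of Bche, 1 of 8 passed at 12 weeks, and this was the paraoxonase gene Pon1, which fell by 0.37 ± 0.08. At 20 weeks 0 of the 8 passed in limma (2 at an unadjusted p under 0.05).

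Of 35 tested cell markers, 11 passed with diet at 12 weeks and 9 at 20 weeks, against 22.5% and 20.9% of all genes. Markers of stellate cells moved with the same diet, with 4 of 5 higher at 12 weeks and 4 of 5 at 20 weeks. Their summed intensity was 2546.8 to 3008.1 in AIM-KO and 2179.2 to 3184.2 in WT livers after 12 weeks, and 1309.9 to 1503.7 in AIM-KO and 1434.3 to 1672.5 in WT livers on chow. Of the hepatocyte markers 3 of 5 were lower at 12 weeks, namely Tat at -0.82, Cps1 at -0.65 and Ttr at -0.25, and 1 of 5 at 20 weeks. Their summed intensity was 29175.3 to 31431.7 in AIM-KO and 32774.7 to 40297.0 in WT livers after 12 weeks, and 42583.7 to 45389.9 in AIM-KO and 39356.2 to 45611.5 in WT livers on chow. Kupffer cell markers were higher in 2 of 6 cases at 12 weeks (Adgre1 at 0.46 and Clec4f at 0.37). The median of these 6 was 0.01, against 0.02 over all genes. At 20 weeks 0 of the 6 passed in limma (2 at an unadjusted p under 0.05). Endothelial markers were higher in 1 of 5 cases at 12 weeks and 2 of 5 at 20 weeks, among them Lyve1 at 1.44 and 1.01. Of the 2 tested red cell markers 1 passed at each time, and this was Alas2 at -0.95 and -2.14. The median of the 2 was -0.27 and -0.84, which places the other marker higher than on chow at both times, though it did not pass. Of the 5 tested cholangiocyte markers 1 was higher at 20 weeks, namely Krt19 at 1.12 (3 at an unadjusted p under 0.05). At 12 weeks 0 of the 5 passed in limma (0 at an unadjusted p under 0.05). The part of these cells in the diet changes of the 8 genes was not tested.

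The 8 genes did not follow a common pattern over the arrays. Over their 28 pairs Pearson's r on the 18 arrays ran from -0.79 (Selenbp1 with Bche) to 0.65 (Map9 with Bche), and from -0.63 to 0.58 after the group means were taken out. All arrays share the groups, so these are descriptions. The gene most like Bche was Prelid2 at r = 0.95, and Abhd2 followed at 0.93. Setd7 was most like Tceal9 at 0.93, which also read lower in AIM-KO livers at 20 weeks (-1.08 on the log2 scale), and Dpp7 at 0.92. Papss1 was most like Tmie at 0.85 and Mef2b at 0.83, whose AIM-KO to WT differences on chow were -1.41 and -1.49. Map9 was most like Rgmb at 0.86 and D030018L15Rik at 0.83, Selenbp1 like Ptprd and Cdk8, both at 0.85, and B3galnt1 like Stx11 and Tlr2, both at 0.79. For Cd1d2 the nearest were Sugp2 and Ctr9, both at 0.77. Asic5 had the least close likeness, with Ewsr1 at 0.75 and Nt5dc3 at 0.72.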

How the data were processed

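The deposited intensity values of each probe set are MAS5 values per the submitters' processing notes, which name no version. Per the labels' protocols RNA was extracted with Trizol and labelled with biotin. The 2% trimmed mean was 100 on each array, and 42 values were 0. Symbols came from the platform annotation, with 34945 probe sets of 1 gene, 932 of several and 9160 of none, and were updated through RefSeq (GRCm38.p6) for 34741. Promoter windows are RefSeq's, for 7 of the 8 genes. The genome build of the platform annotation is unnamed, so RefSeq served otherwise for names and gene order.

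The deposited intensities were put on a log2 scale after addition of 3.3, their 20th percentile. Probe sets above the 40th percentile of their array on 3 or more arrays were kept, and the brightest stood for its gene. The 6 group means were fitted on 18 arrays with limma 3.58.1 in R 4.3.3 (eBayes with trend, 18.2 degrees of freedom), with Benjamini-Hochberg adjustment over 14694 genes and a threshold of 0.05. All tests are 2-sided and all adjusted p-values are from limma. Simulated data were used to check the procedure. The 8 genes, the lists and the tests were chosen with earlier results of these data known. Genes were named by rule, namely the 8 with their probe sets, Cd5l, Xist, neighbours, paralogs, called chromosome 3 genes, the 2 closest by correlation, and up to 3 called genes per list. Alternatives were the pseudocount, quantile normalization, the dim filter, the mean of probe sets, no trend, array weights, a replicate block, a term for Xist-high arrays and leaving out each array.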

Additional observations from a re-analysis of the deposited data

Results flagged for a closer look

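Papss1 went in opposite directions in the genotypes between 20 weeks of HFD and chow. Its log2 difference was 0.83 ± 0.14 in AIM-KO and -0.25 ± 0.14 in WT livers. Each AIM-KO array at 20 weeks lay above the mean of AIM-KO livers on chow. Each WT array at 20 weeks lay below the mean of WT livers on chow. Setd7 did the same in the reverse sense over that interval, at -0.18 ± 0.17 in AIM-KO and 0.69 ± 0.17 in WT livers. Neither difference was tested, since both rest on the chow arrays that picked the genes. The Papss1 arrays of WT and the Setd7 arrays of AIM-KO livers overlapped between 20 weeks and chow. The AIM-KO to WT difference of Selenbp1 changed its sign over the diets, at -0.63 on chow, -0.21 after 12 weeks and 0.14 after 20 weeks, and this difference between diets was not tested either. With the term for Xist-high arrays, which leaves a single WT array to compare with, the 20-week value of Selenbp1 was 0.04 ± 0.13. The probe set with the Selenbp1 accession stood at 0.01 ± 0.11 without this term.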

How the results depend on the processing

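Over 28 alternatives the diet calls of Papss1, Selenbp1, B3galnt1 and Bche at 12 weeks and of Selenbp1 and Bche at 20 weeks held in all 28. Setd7 at 12 weeks was lost with the mean of its probe sets (0.31, adjusted p = 0.233 by limma), Asic5 at 20 weeks with the Xist term, and Papss1 at 20 weeks in 13 of 28. Calls were gained at 12 weeks by Asic5 (adjusted p = 0.025) and Map9 (0.0447) and at 20 weeks by B3galnt1 (0.0102), Map9 (0.0431) and Setd7 (0.0367) with array weights, and with an array left out by B3galnt1 at 20 weeks (replicate 3 of either genotype on chow) and Asic5 at 12 weeks (WT replicate 2 at 12 weeks). The counts of called genes moved more. For AIM-KO over WT at 12 weeks (11 genes) they were 19 with a larger pseudocount, 7 with quantile normalization, 5 without a dim filter, 6 with the mean of probe sets, 3 without the trend, 67 with array weights and 3 to 100 with an array left out. At 20 weeks (23 genes) they were 35 with the larger pseudocount, 9 without a filter, 2 with the mean of probe sets, 2 without the trend, 706 with weights, 6 with a term for Xist-high arrays and 2 to 946 with an array left out. With weights the count was 9 on chow and 18 averaged over the diets, and with an array left out 3 to 7 and 3 to 55. For 20 over 12 weeks (82 genes) it was 46 with the mean of probe sets, 2 without the trend, 273 with weights, 1 with the Xist term and 9 to 117 with an array left out, of which 54 or fewer without WT replicate 3 on chow or at 12 weeks, WT replicate 2 at 20 weeks, or any AIM-KO array on HFD. For 20 weeks over chow (3074 genes) it was 1543 with the Xist term and 2492 to 3174 with an array left out, and for 12 weeks over chow (3299 genes) 2662 to 3510. The causes were not tested.

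Directions turned for values that had passed no test or had none. With the mean of probe sets, Setd7 at 12 weeks AIM-KO over WT was -0.29, Bche at 20 weeks -0.10, Map9 at 20 weeks over chow -0.0083, Setd7 there -0.0255, and Map9 at 20 over 12 weeks -0.22. With the Xist term, Bche AIM-KO over WT at 20 weeks was -0.0089, and for 20 over 12 weeks Selenbp1 was -0.0448, Map9 -0.17 and B3galnt1 0.10. With an array left out, Map9 at 20 over 12 weeks ran from -0.0687 to 0.24 and Cd1d2 from -0.32 to 0.0714. A stricter dim filter dropped Cd1d2.

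Replicate numbers are shared by the groups. The correlation of deviations from the group means was -0.088 to 0.229 over 45 pairs of same-numbered arrays (median 0.038). For arrays of other numbers it was -0.192 to 0.124 (median -0.017). Whether same-numbered samples belong together was not tested. With a replicate block the counts between genotypes were 17 at 12 weeks (11 without it) and 63 at 20 weeks (23 without it). They were 4 on chow and 5 averaged over the diets.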
